A study of Mus musculus with 16 samples.

Results

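The Toll-like receptors Tlr1, Tlr2, Tlr3, Tlr4, Tlr6, Tlr7, Tlr8, Tlr9 and Tlr13 and their shared adaptor Myd88 were followed across treated melanomas. These 10 genes were picked by symbol from the 18929 genes with an expression value, and all 10 were among the 12850 genes that passed the filter on low values. The tumors were grown from B16F10, a mouse melanoma cell line, in female C57BL/6 mice of 7 to 8 weeks, so that every group carried the same graft in a host with an intact immune system. Treatment began at a tumor volume of about 50 mm3 and lasted 9 to 11 days. There were 4 groups of 4 independent tumors. The vehicle group (label Vehicle) received corn oil and an IgG isotype control. The anti-PD1 group (PD1mAb) received an antibody that blocks the T-cell checkpoint receptor PD1. The α-KG group (alpha_KG) received the metabolite α-ketoglutarate at 100 mg/kg, and the α-KG + anti-PD1 group (aKG_PD1mAb) received both agents. Whether the single-agent groups also received corn oil or the isotype control was not given in the sources used here. Whole tumor RNA was sequenced, and expression is given in FPKM, a fragment count corrected for transcript length and library size.

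Toll-like receptors are innate sensors of microbial and damaged-cell molecules, carried mostly by macrophages, neutrophils, dendritic cells and B cells. Tlr1, Tlr2, Tlr4 and Tlr6 sit at the cell surface, where Tlr2 pairs with Tlr1 or with Tlr6 to bind lipopeptides and Tlr4 binds lipopolysaccharide. Tlr3, Tlr7, Tlr8, Tlr9 and Tlr13 sit in endosomes and sense nucleic acids. All of them except Tlr3 signal through Myd88, which recruits IRAK kinases and leads to NF-κB and interferon regulatory factors.

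The deposited values gave no read counts, so the depth of each tumor was unknown and values below about 1 FPKM were the least precise. The tumors held melanoma RNA throughout, with a summed level of 7 melanocyte markers between 7845 and 10572 FPKM, and the 6 keratinocyte markers summed to at most 0.96 FPKM. A few abundant genes moved with the groups. The 6 red cell markers summed to 10891 to 11752 FPKM in α-KG + anti-PD1 tumors and to 23318 to 145323 FPKM in the other 12 tumors, and the vehicle tumors had 51.6 to 679 FPKM of 6 skeletal muscle markers against at most 64.8 FPKM in the others. FPKM are relative to a total, and the median gene was displaced by 0.15 on the log2 scale between α-KG + anti-PD1 and vehicle tumors. Differences are in log2(FPKM + 1), where the added 1 shrinks the change of weakly expressed genes, and were tested with limma with Benjamini-Hochberg adjustment over all 12850 genes at a threshold of 0.05.

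Promoter windows of 250 bases before a RefSeq start were at hand for 8 members in 10 entries, on GRCm38.p6. They are shown up to the first base of any exon annotated by GENCODE. They are printed for Tlr2 and Tlr6, which were among the members highest after α-KG alone, and for Tlr9, which was among those highest after the combination. Matches to 4 short motifs are in capitals. These were a κB type (GGNNNTTCC), an interferon-response type (GAAANNGAA), a STAT type (TTCNNNGAA) and a PU.1 type (GAGGAA), each searched on both strands. The Tlr2 stretch of 91 bases, on the minus strand at chr3:83841768-83841858, held a palindrome that matched the κB type on both strands, with overlapping matches. The outermost RefSeq start of Tlr2 is at chr3:83841824, so the palindrome lies inside the span of the gene.
Tlr2: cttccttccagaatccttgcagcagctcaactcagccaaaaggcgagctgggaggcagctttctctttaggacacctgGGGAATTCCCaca
The Tlr6 stretches lay on the minus strand of chromosome 5, both inside the span of the gene and outside its annotated exons. The 201 bases at chr5:64960098-64960298 held 1 match of the κB type.
Tlr6 internal start 1: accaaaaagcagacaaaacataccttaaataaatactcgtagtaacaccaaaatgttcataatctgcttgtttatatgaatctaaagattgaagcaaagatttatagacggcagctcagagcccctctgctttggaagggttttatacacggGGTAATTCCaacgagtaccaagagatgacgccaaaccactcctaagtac
The 250 bases before the other start, at chr5:64959167-64959416, held 2 overlapping matches of the interferon-response type.
Tlr6 internal start 2: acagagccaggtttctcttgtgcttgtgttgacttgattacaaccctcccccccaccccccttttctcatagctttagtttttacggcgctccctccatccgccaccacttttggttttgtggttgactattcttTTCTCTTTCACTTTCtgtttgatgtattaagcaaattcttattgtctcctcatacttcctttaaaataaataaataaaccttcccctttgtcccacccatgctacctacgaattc
The 250 bases of Tlr9, on the plus strand at chr9:106222348-106222597, held 1 match of the PU.1 type.
Tlr9: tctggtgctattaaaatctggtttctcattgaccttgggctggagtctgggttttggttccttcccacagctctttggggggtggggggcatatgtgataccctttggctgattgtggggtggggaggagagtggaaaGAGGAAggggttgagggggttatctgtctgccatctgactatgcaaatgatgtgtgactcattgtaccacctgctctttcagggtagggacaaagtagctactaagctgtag
The other windows, over their full 250 bases, also held matches. Myd88 held 1 match each of the interferon-response and STAT types, and Tlr8 held 1 each of these and of the PU.1 type. The Tlr1 entries held 1 match of the STAT type and 1 of the PU.1 type. Tlr13 held 1 of the PU.1 type and Tlr3 held 1 of the κB type. Such matches are common. Of 32851 mouse promoters of this length, 15.7% held the κB type, 7.13% the interferon-response type, 7.02% the STAT type and 23.3% the PU.1 type.

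On the genome, Tlr1 and Tlr6 are neighbors on chromosome 5, separated by 19491 bases, and Tlr7 and Tlr8 are neighbors on chromosome X, separated by 39050 bases. The neighbors Tlr1 and Tlr6 are also close in sequence. They share 454 stretches of 50 bases, which is 13.6% of those of Tlr1 and 12.3% of those of Tlr6, and a counting program could divide such reads between them. Tlr6 also overlaps Fam114a1 and Mir574, and whether strand was used in counting was not given in the sources used here. Fam114a1 ranged from 6.66 to 11.81 FPKM in α-KG tumors and from 6.96 to 11.0 FPKM in vehicle tumors.

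The members fell into different patterns over the groups. In vehicle tumors the highest levels were those of Myd88, Tlr4, Tlr3 and Tlr7, at means of 4.04 to 4.94 FPKM, and the means of Tlr6, Tlr9, Tlr8 and Tlr1 were all below 1 FPKM. Mean levels of Tlr2, Tlr4, Tlr6 and Tlr13 were highest in α-KG tumors, whereas those of Tlr1, Tlr3, Tlr7, Tlr8, Tlr9 and Myd88 were highest in α-KG + anti-PD1 tumors. In whole tumors, a larger number of cells of a type and more RNA per cell cannot be told apart.

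**Figure D1:**
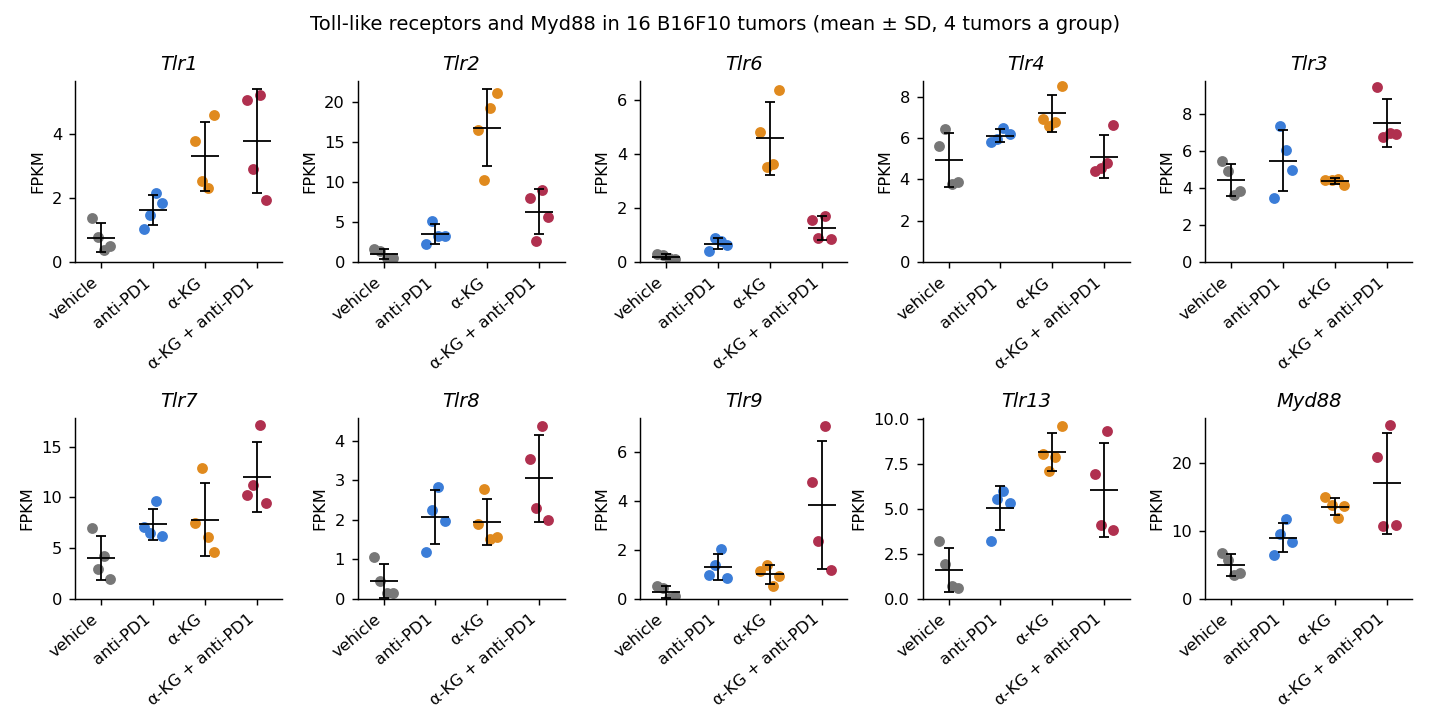
FPKM of the 10 genes (y axes, each starting at 0) in the 4 groups (x axes), with 1 point per tumor and the mean ± SD of 4 tumors in black. Tlr2 and Tlr6 stand highest in α-KG tumors, and Tlr3 and Tlr9 reach their highest values in α-KG + anti-PD1 tumors.

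Tlr2, the common partner of the lipopeptide receptors, stood at 1.70, 1.40, 0.47 and 0.58 FPKM in the vehicle tumors. It was at 2.27, 5.14, 3.32 and 3.30 FPKM with anti-PD1, at 16.46, 10.2, 19.24 and 21.13 FPKM with α-KG, and at 8.01, 2.59, 8.96 and 5.68 FPKM with α-KG + anti-PD1. Every α-KG tumor was above every other tumor, and every treated tumor was above every vehicle tumor. Tlr2 was higher in α-KG than in vehicle tumors by 3.13 (SE 0.31) on the log2 scale, with an adjusted p of 4.45e-06, and the ratio of mean FPKM was 16.2. It was higher in α-KG than in anti-PD1 tumors by 1.97 (SE 0.31, adjusted p = 0.000954).

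Tlr6, which pairs with Tlr2 to bind diacylated lipopeptides, followed the same order at a lower level. The 4 vehicle tumors had 0.29, 0.28, 0.15 and 0.12 FPKM and the anti-PD1 tumors 0.41, 0.88, 0.80 and 0.64 FPKM. The α-KG tumors had 4.82, 3.51, 3.62 and 6.39 FPKM and the α-KG + anti-PD1 tumors 1.55, 0.88, 1.71 and 0.86 FPKM. The lowest α-KG tumor was thus above the highest of the other 12, while anti-PD1 and α-KG + anti-PD1 tumors overlapped. The difference of α-KG from vehicle was 2.18 (SE 0.17, adjusted p = 3.24e-07) on the log2 scale, and that from anti-PD1 was 1.71 (SE 0.17, adjusted p = 6.85e-06). The vehicle values were low enough that their ratio to the α-KG mean, 21.8, is imprecise.

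Tlr1, the other partner of Tlr2, which gives a receptor for triacylated lipopeptides, behaved differently. Its levels were 1.38, 0.79, 0.38 and 0.51 FPKM in vehicle tumors, 1.05, 1.46, 2.16 and 1.84 FPKM with anti-PD1, 3.79, 2.52, 2.32 and 4.6 FPKM with α-KG, and 5.07, 2.92, 5.21 and 1.94 FPKM with both agents. The α-KG and α-KG + anti-PD1 tumors overlapped fully, and both lay above vehicle, by 1.29 (SE 0.25, adjusted p = 0.00244) and 1.40 (SE 0.25, adjusted p = 0.000716) on the log2 scale. The ratio of Tlr6 to Tlr1 FPKM within a tumor was therefore 1.27 to 1.56 with α-KG alone and at most 0.603 in any other tumor.

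Tlr4, the lipopolysaccharide receptor, varied least between groups. It was at 5.6, 6.46, 3.80 and 3.86 FPKM in vehicle tumors and at 5.79, 5.94, 6.50 and 6.21 FPKM with anti-PD1. With α-KG it was at 6.94, 6.59, 6.76 and 8.51 FPKM, just above the highest vehicle tumor, and with α-KG + anti-PD1 at 4.41, 4.55, 4.81 and 6.64 FPKM, within the vehicle and α-KG ranges. The difference of α-KG from vehicle was 0.49 (SE 0.15, adjusted p = 0.0335), and its adjusted p passed 0.05 when any of 5 of the 8 tumors was left out, up to 0.117. That of α-KG + anti-PD1 from vehicle was 0.05 (95% interval -0.26 to 0.37, adjusted p = 0.787), and after quantile normalization it was -0.38 (adjusted p = 0.0348), so its direction depended on the scaling.

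Among the endosomal receptors, Tlr13, which senses bacterial ribosomal RNA in mice, was the closest to Tlr2. It rose from 3.20, 1.92, 0.71 and 0.63 FPKM in vehicle tumors to 8.04, 7.14, 7.91 and 9.62 FPKM with α-KG, a difference of 1.92 (SE 0.29, adjusted p = 0.000316) on the log2 scale. The anti-PD1 tumors had 3.24, 5.58, 5.99 and 5.32 FPKM and the α-KG + anti-PD1 tumors 6.96, 4.11, 9.36 and 3.81 FPKM. All treated tumors exceeded all vehicle tumors, and the combination overlapped both single agents.

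Tlr7 and Tlr8, sensors of single-stranded RNA, were highest on average after the combination. Tlr7 was at 7.02, 2.99, 4.20 and 1.95 FPKM in vehicle tumors and at 10.26, 11.18, 17.08 and 9.45 FPKM with both agents, with no overlap, whereas the anti-PD1 tumors (6.17 to 9.60 FPKM) and the α-KG tumors (4.66 to 12.91 FPKM) overlapped vehicle. Tlr8 was at 1.05, 0.44, 0.16 and 0.14 FPKM in vehicle tumors and between 1.19 and 4.36 FPKM in all 12 treated tumors. The combination exceeded vehicle by 1.43 (SE 0.30, adjusted p = 0.00171) for Tlr7 and by 1.48 (SE 0.23, adjusted p = 0.000465) for Tlr8. Against α-KG neither was called, at 0.61 (adjusted p = 0.113) and 0.44 (adjusted p = 0.142).

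Tlr9, the receptor for unmethylated CpG DNA, showed the largest ratio of mean FPKM between combination and vehicle. Its vehicle values were low enough that this ratio is imprecise, and on the log2(FPKM + 1) scale Tlr2 differed more, by 1.79. Tlr9 was at 0.52, 0.45, 0.04 and 0.10 FPKM in vehicle tumors, at 0.97, 1.38, 2.04 and 0.87 FPKM with anti-PD1, at 1.15, 1.39, 0.52 and 0.92 FPKM with α-KG, and at 4.78, 2.35, 7.03 and 1.16 FPKM with α-KG + anti-PD1. The combination tumors were spread widely, and the lowest of them lay among the single-agent tumors. Tlr9 was higher after the combination than in vehicle by 1.76 (SE 0.31, adjusted p = 0.000708) and than in α-KG by 1.12 (SE 0.31, adjusted p = 0.0116) on the log2 scale. The difference from anti-PD1, 0.91 (95% interval 0.25 to 1.58), had an adjusted p of 0.0572.

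Tlr3, which binds double-stranded RNA and signals through Ticam1 instead of Myd88, was the receptor that α-KG alone moved least. Vehicle tumors had 5.45, 4.90, 3.63 and 3.82 FPKM and α-KG tumors 4.44, 4.41, 4.5 and 4.16 FPKM, a difference of -0.01 (95% interval -0.36 to 0.35, adjusted p = 0.987). With anti-PD1 it was at 3.46, 7.34, 6.07 and 4.99 FPKM, and with both agents at 9.47, 6.73, 6.97 and 6.93 FPKM. The combination tumors were all above the vehicle and α-KG tumors, by 0.65 (SE 0.17) in each case, with adjusted p of 0.00612 and 0.00722. After quantile normalization the difference from vehicle was 0.23 (adjusted p = 0.126), and the highest combination tumor stood apart from the other 3.

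Myd88, the adaptor, was at 6.75, 5.78, 3.46 and 3.77 FPKM in vehicle tumors, at 6.50, 9.46, 11.68 and 8.31 FPKM with anti-PD1, at 14.92, 13.72, 11.94 and 13.58 FPKM with α-KG, and at 20.89, 10.66, 25.49 and 10.83 FPKM with α-KG + anti-PD1. The α-KG tumors were close together, and the combination tumors fell into a higher and a lower pair on either side of them. Myd88 was higher than in vehicle by 1.33 (SE 0.25, adjusted p = 0.00223) with α-KG and by 1.54 (SE 0.25, adjusted p = 0.000536) with both agents. Tumors 1 and 3 of the combination group were also the higher ones for Tlr1, Tlr2, Tlr6, Tlr8, Tlr9 and Tlr13.

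Set against vehicle, the 3 treatments differed in which members passed the test. After the combination 9 of the 10 members were higher and Tlr4 was not called, where 34.9% of all genes were called higher, and for the same 9 the tumors did not overlap, which held for 28.2% of all genes. After α-KG alone 7 were higher (Tlr1, Tlr2, Tlr4, Tlr6, Tlr8, Tlr13 and Myd88), beside 8.40% of all genes, and the tumors of these 7 did not overlap with vehicle, beside 10.1%. After anti-PD1 alone Tlr8 was the only member called, at 1.09 (SE 0.23, adjusted p = 0.0448), beside 0.467% of all genes, and 5 members (Tlr2, Tlr6, Tlr8, Tlr9 and Tlr13) did not overlap with vehicle, beside 5.00%. Tlr13 at 1.29 (adjusted p = 0.0521) and Tlr2 at 1.16 (adjusted p = 0.0815) missed the threshold with anti-PD1, and the Tlr8 call was lost when any of 6 of the 8 tumors was left out. The median difference of the 10 members was 1.45 after the combination, 1.16 after α-KG and 0.78 after anti-PD1, beside medians over all genes of 0.15, -0.04 and 0.03. The 3 comparisons share the same vehicle tumors.

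**Figure D2:**
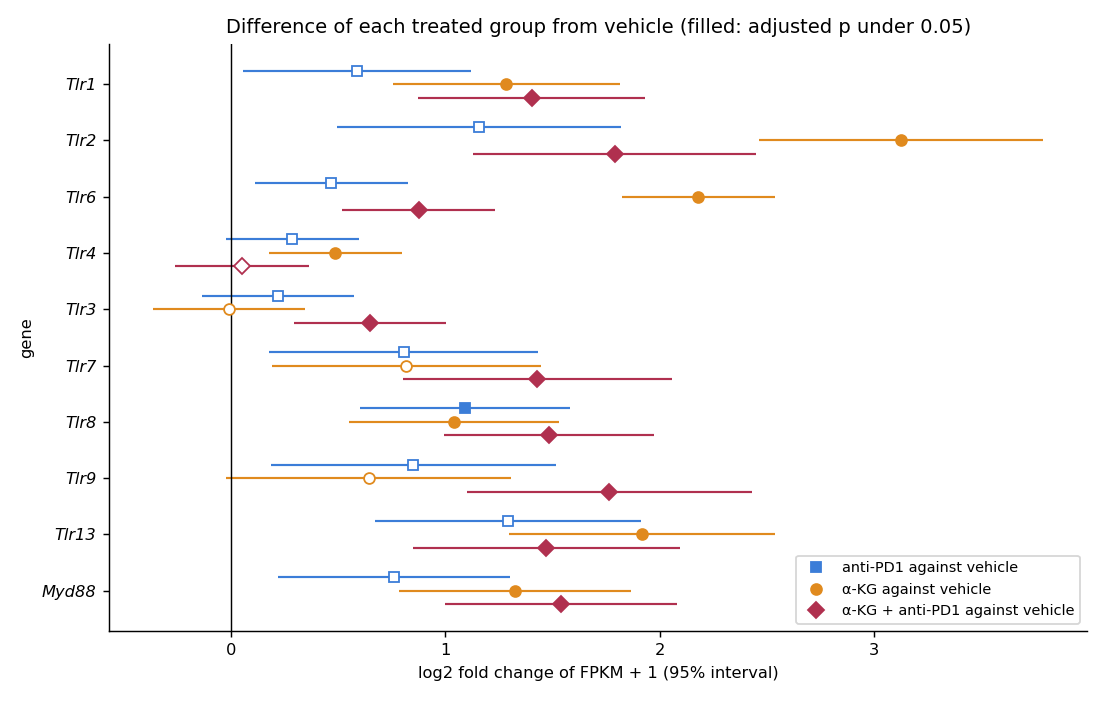
Difference of each treated group from vehicle in log2(FPKM + 1) (x axis) for each gene (y axis), with 95% intervals from limma. Filled symbols have an adjusted p under 0.05. α-KG lies farthest to the right for Tlr2, Tlr6, Tlr4 and Tlr13, and for Tlr4 and Tlr3 1 of the groups lies at about 0.

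The treated groups were then compared with each other. Against α-KG, the combination had lower Tlr2 by -1.34 (SE 0.31, adjusted p = 0.00439), lower Tlr6 by -1.30 (SE 0.17, adjusted p = 0.000141) and lower Tlr4 by -0.43 (SE 0.15, adjusted p = 0.0291), 3 members beside 6.47% of all genes called lower. The Tlr4 call ended without α-KG tumor 4 or any of combination tumors 1, 2 and 3 (adjusted p up to 0.0842), and with sums set equal (-0.24, adjusted p = 0.241). For Tlr2 and Tlr6 the tumors did not overlap, beside 5.68% of all genes. Tlr3 and Tlr9 were higher, 2 members beside 31.8% of all genes called higher, and Tlr3 alone did not overlap, beside 29.7%. Against anti-PD1, the combination had higher Tlr1 at 0.82 (SE 0.25, adjusted p = 0.0406) and higher Myd88 at 0.78 (SE 0.25, adjusted p = 0.0498), 2 members beside 14.2% of all genes, and the tumors overlapped for all 10, where 13.6% of all genes had higher combination tumors without overlap. Both calls were close to the threshold, and leaving out any of anti-PD1 tumors 1, 2 and 4 or combination tumors 1 and 3 ended both. Against anti-PD1, α-KG had higher Tlr2 and Tlr6, 2 members beside 2.80% of all genes, and 6 members did not overlap (Tlr1, Tlr2, Tlr4, Tlr6, Tlr13 and Myd88), beside 5.41%.

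The interaction asks whether the effect of anti-PD1 was another with α-KG than without it. It was negative for 4 members, beside 3.13% of all genes called lower, and no member was called positive, beside 7.99% of all genes. With the macrophage markers in the model Tlr3 was called positive at 0.65 (adjusted p = 0.0328), where 19.3% of all genes were. Tlr6 was not called with anti-PD1 alone and was lower when anti-PD1 was added to α-KG, with an interaction of -1.77 (SE 0.24, adjusted p = 0.000357) on the log2 scale. That of Tlr2 was -2.49 (SE 0.44, adjusted p = 0.00344) and that of Tlr13 was -1.74 (SE 0.41, adjusted p = 0.0168). For Tlr4 it was -0.72 (SE 0.21, adjusted p = 0.0373), which passed 0.05 when any of 11 of the 16 tumors was left out. The other 6 members were not called, with estimates from -0.65 to 0.43.

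Together these shifts went with another make-up of the receptor pool. The summed FPKM of the 9 receptors was 17.8 ± 6.57 (SD, n = 4) in vehicle, 33.1 ± 6.08 with anti-PD1, 55.1 ± 4.53 with α-KG and 48.9 ± 13.4 with the combination. Tlr2 and Tlr6 made up 26.6% to 44.7% of that sum in the α-KG tumors, and 4.58% to 8.56% in vehicle, 10.5% to 16.5% in anti-PD1 and 9.23% to 17.7% in combination tumors. The α-KG tumors did not overlap with the rest. The 5 endosomal receptors together made up 34.0% to 55.6% with α-KG and 54.5% to 65.8% in vehicle, so that α-KG tumor 2 overlapped the vehicle tumors, and 60.7% to 70.9% with the combination. Tlr2 had the largest share in 3 of the α-KG tumors, while in α-KG tumor 2 Tlr7 led with 25.1% against 19.8% for Tlr2.

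**Figure D3:**
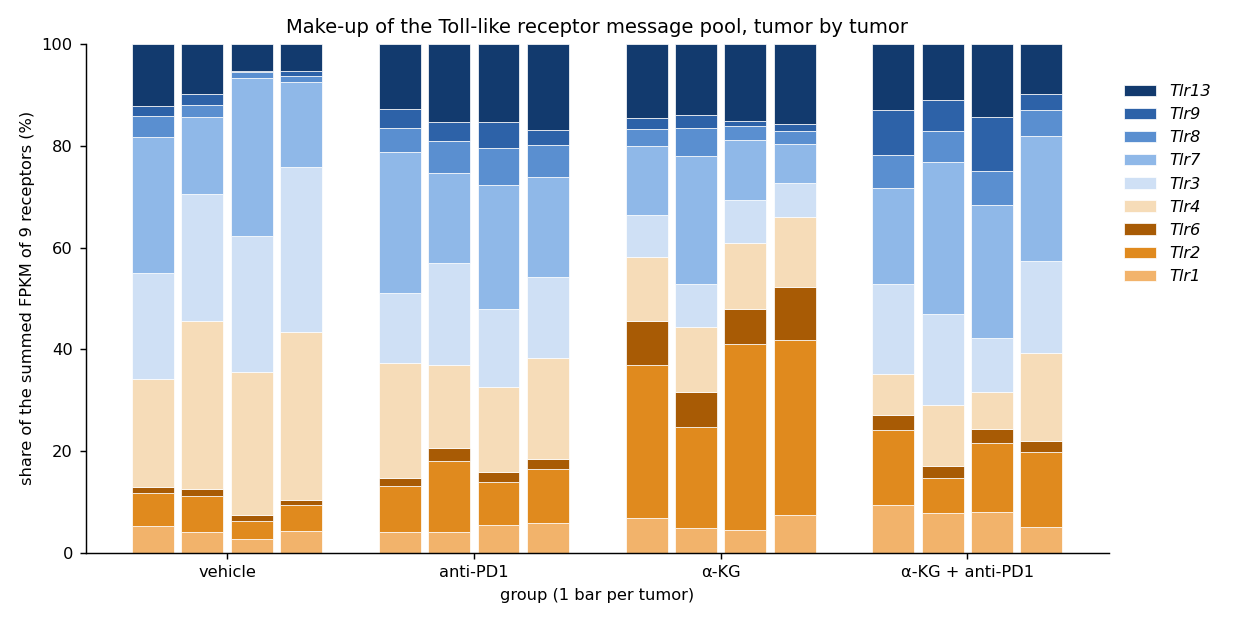
Share of each of the 9 receptors in their summed FPKM (y axis, %), with 1 bar per tumor and tumors grouped along the x axis. Orange shades are cell-surface receptors and blue shades endosomal ones. Tlr2 and Tlr6 make up 26.6% to 44.7% of the α-KG bars and at most 17.7% of the others.

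The other parts of the pathway were examined in lists of genes. Of 5 tested co-receptors, 4 were higher than in vehicle after the combination, beside 34.9% of all genes, and 1 after α-KG, beside 8.40%. The latter was Cd14, which hands lipopolysaccharide and lipopeptides to Tlr4 and Tlr2. It rose from 3.19, 8.30, 2.02 and 2.88 FPKM in vehicle to 188.65, 140.46, 239.31 and 359.27 FPKM in α-KG tumors (5.57, SE 0.44, adjusted p = 3.9e-07), and was at 13.0, 5.03, 12.35 and 20.4 FPKM after the combination. Cd180 and Ly86, which form a Toll-like complex that tunes Tlr4, went the other way and were higher after the combination than after α-KG, by 1.56 (adjusted p = 0.0107) and 1.28 (adjusted p = 0.028).

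Of 8 genes for trafficking and processing of endosomal receptors, 5 were higher after the combination than in vehicle and 3 after α-KG, beside the same 34.9% and 8.40%. Unc93b1, the chaperone that carries endosomal receptors out of the endoplasmic reticulum, was at 73.98, 44.41, 81.93 and 30.08 FPKM after the combination and at most 35.07 FPKM elsewhere, a difference of 2.08 (SE 0.32, adjusted p = 0.00046) from vehicle and 1.15 (adjusted p = 0.0111) from α-KG. The protease Ctss, which cleaves endosomal receptors into their active form, differed by 3.25 (SE 0.53, adjusted p = 0.000509) from vehicle. Hsp90b1 and Cnpy3, folding factors needed by most Toll-like receptors, were not called in any of these comparisons, at 0.15 and 0.02 for combination against vehicle.

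Downstream, 9 of 15 kinases and ubiquitin ligases, 7 of 7 transcription factors, 5 of 7 inhibitors and 2 of 4 other adaptors were higher after the combination than in vehicle, beside 34.9% of all genes. After α-KG the counts were 2 of 15, 5 of 7, 4 of 7 and 3 of 4, beside 8.40% of all genes, and no gene of these lists was lower in either comparison. Irf5 and Irf7, interferon regulatory factors that act under Myd88, rose by 2.37 (SE 0.39, adjusted p = 0.000558) and 1.65 (SE 0.28, adjusted p = 0.000623) after the combination. Centering the tumors on their medians left 5 of the 15 kinases higher and 2 lower after the combination, and 5 of the 7 transcription factors higher. With that centering 17.1% of all genes were called higher and 37.4% lower. Among the inhibitors, Nfkbia, which holds NF-κB in the cytoplasm, was at 12.0, 11.99, 9.96 and 9.13 FPKM in vehicle, 187.03, 114.37, 213.16 and 293.7 FPKM with α-KG, and 42.04, 17.64, 44.85 and 43.89 FPKM with both agents. Irak3, an inactive IRAK that blocks the Myd88 complex, was higher with α-KG than in vehicle by 2.24 (adjusted p = 7.58e-06) and lower with both agents than with α-KG by -1.34 (adjusted p = 0.000989).

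Known target genes of the pathway were examined last. All 13 tested target genes were called higher in α-KG than in vehicle tumors, with a median difference of 3.83, beside 8.40% of all genes. After the combination 11 were higher than in vehicle, with a median of 1.58, beside 34.9% of all genes. Against α-KG, 10 of the 13 were lower after the combination, beside 6.47% of all genes, with a median of -1.77 beside 0.16 over all genes. For 9 of the 13 the interaction was called negative, beside 3.13% of all genes. Il1b, a cytokine gene, was at 1.46 to 6.19 FPKM in vehicle, 276.49 to 721.62 FPKM with α-KG and 6.91 to 48.38 FPKM with both agents. Cxcl2, a neutrophil-attracting chemokine gene, was at 414.48 to 1232.24 FPKM with α-KG and at 3.83, 3.42, 3.25 and 49.07 FPKM after the combination, where its difference from vehicle was 0.66 (SE 0.64, adjusted p = 0.414). Tnf was at 35.33, 10.88, 44.11 and 33.75 FPKM with α-KG, at 7.40, 2.24, 10.06 and 15.68 FPKM with both agents and at most 0.77 FPKM in vehicle. Nos2, which makes nitric oxide, was not called between the combination and α-KG (-0.71, SE 0.50, adjusted p = 0.278).

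**Figure D4:**
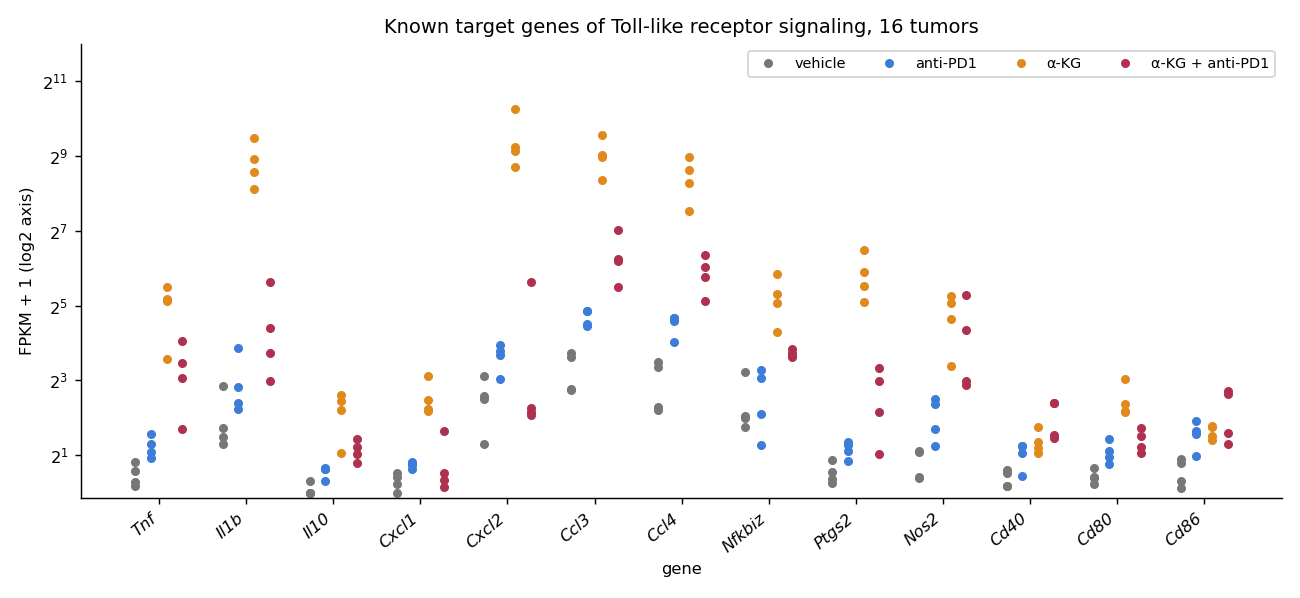
FPKM + 1 (y axis, log2 scale) of the 13 tested target genes (x axis), with 1 point per tumor and color by group. The α-KG tumors are the highest for Il1b, Cxcl2, Ccl3, Ccl4 and Ptgs2, and the combination tumors lie between α-KG and vehicle for Ccl3 and Ccl4.

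Markers of the cells that carry these receptors moved with the groups. The 6 neutrophil markers (S100a8, S100a9, Csf3r, Cxcr2, Retnlg and Ly6g) summed to 1075 to 2862 FPKM in α-KG tumors and to 18.3 to 111 FPKM in the other 12. All 6 were higher in α-KG than in vehicle tumors, beside 8.40% of all genes, and than in anti-PD1 tumors, beside 2.80%. All 6 were lower after the combination than after α-KG, beside 6.47% of all genes. Ly6g, the defining marker, was at 0 in all 4 vehicle tumors and at 1.57, 2.11, 9.16 and 4.38 FPKM with α-KG. The α-KG group is the one in which Tlr2, Tlr4, Tlr6, Tlr13, Cd14 and the tested target genes other than Cd40 and Cd86 had their highest means. Neutrophil content and the treatment cannot be told apart for them. With the mean neutrophil marker level in the model, a fit added after seeing the data, 0 of the 12850 genes were called by limma in α-KG against vehicle and the SE of Tlr2 was 1.05 instead of 0.31, with an estimate of 1.53 instead of 3.13. Tlr6 was at 1.88 (SE 0.61) in that fit, and the estimates of Tlr1, Tlr7, Tlr8, Tlr9, Tlr13 and Myd88 were larger than without the covariate, at 2.05 to 3.43, with larger SEs. The unadjusted p of 7 members was under 0.05, a count with no share of all genes to set beside it.

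The 8 macrophage markers summed to 97.2 to 484 FPKM in vehicle, 424 to 808 FPKM with anti-PD1, 428 to 698 FPKM with α-KG and 674 to 1635 FPKM after the combination. All 8 were higher after the combination than in vehicle, beside 34.9% of all genes. The sums of these groups did not overlap, so macrophage content and the treatment cannot be told apart in that comparison. With the mean macrophage marker level in the model, 0 of 10 members and 0 of the 12850 genes were called by limma in combination against vehicle. In that fit 0 members had an unadjusted p under 0.05, and the estimates of the members ranged from -0.20 to 0.74. In α-KG against vehicle the same model left 3 members called, Tlr2 at 2.42 (SE 0.38, adjusted p = 0.00101), Tlr6 at 1.88 (SE 0.22, adjusted p = 7.93e-05) and Tlr13 at 0.86 (SE 0.20, adjusted p = 0.0229). The 6 leukocyte markers were all higher in both α-KG and combination tumors than in vehicle, beside 8.40% and 34.9% of all genes. Their sums were 418 to 440 FPKM and 215 to 870 FPKM against 28.9 to 136 FPKM. B cell markers summed to at most 34.3 FPKM, with no tested marker called in any comparison with vehicle.

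**Figure D5:**
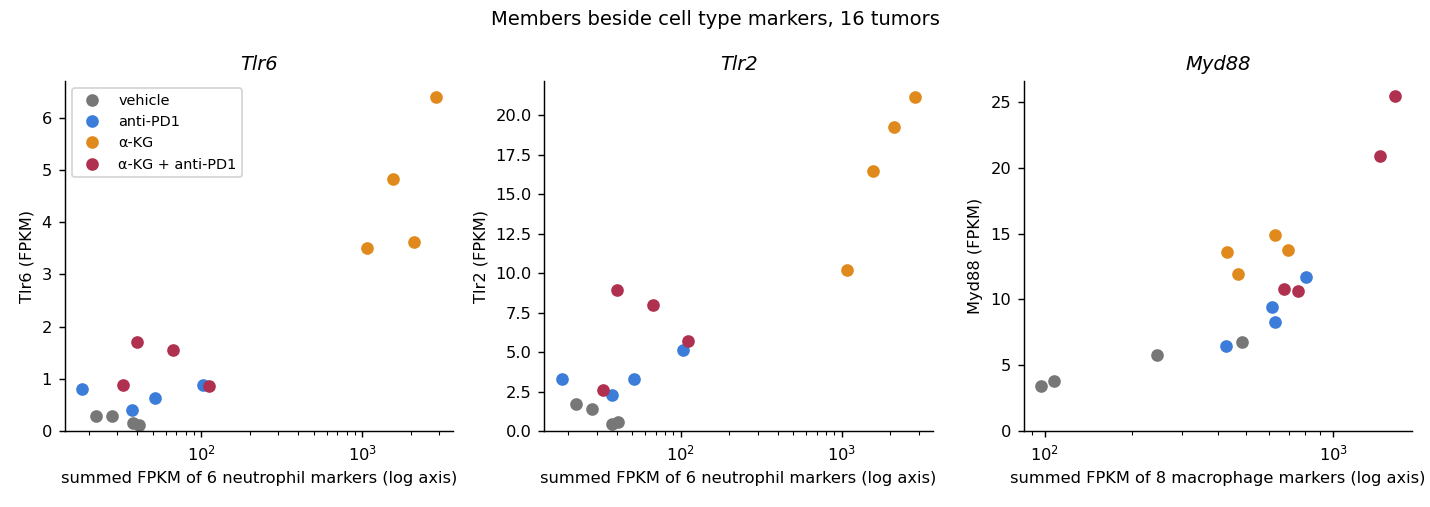
FPKM of Tlr6, Tlr2 and Myd88 (y axes) against the summed FPKM of 6 neutrophil or 8 macrophage markers (x axes, log scale), 1 point per tumor. The 4 α-KG tumors stand alone at 1075 to 2862 FPKM of neutrophil markers, and the combination tumors with the highest macrophage sums have the highest Myd88.

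The genes whose levels were most like those of each member over the 16 tumors were ranked by Pearson's r of log2(FPKM + 1). These values are a description, since the tumors share groups and cell content. Closest to Tlr2 were Cebpb (r = 0.988), Cd300ld (0.987) and Plek (0.986), and to Tlr6 Tarm1 (0.991), Sh2b2 (0.986) and Mxd1 (0.985). Closest to Tlr13 were Fcgr3 (0.993), Itgam (0.985) and Adam8 (0.985), and to Myd88 Inpp5d (0.989), Cmklr1 (0.985) and Dram1 (0.985). Closest to Tlr3 were Ifih1 (0.968), a cytosolic sensor of double-stranded RNA, Ifit3 (0.964), an interferon-induced gene, and Sdccag8 (0.958). Tlr9 was nearest to Coro2a (0.981), Ticam2 (0.974) and Lrmp (0.974), and Tlr8 to Lpxn (0.983), Ctsb (0.980) and Abcg1 (0.979). For Tlr1 they were Gmfg (0.978), Ptpre (0.975) and Vav1 (0.974), and for Tlr7 Fbxl18 (0.968), Tmem82 (0.968) and Tnfrsf14 (0.965). Tlr4 had weaker neighbors, with Slc7a11 at 0.927, B230219D22Rik at 0.892 and Arl5b at 0.887. Among the members themselves, the highest r were those of Tlr1 with Myd88 (0.957) and of Tlr2 with Tlr6 (0.950).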

How the data were processed

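The authors deposited a table of FPKM values, 2 decimals, for 18929 genes in 16 tumors. RNA was extracted with TRIpure, poly(A) RNA was selected with oligo dT, the second strand was marked with dUTP and libraries were read on DNBSEQ. The submitters' processing notes name HISAT, Bowtie2 and mm10. The counting program, annotation and any scaling between tumors were not given in the sources used here. Depth could not be recovered from the steps of low values.

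The test took the genes that reached 0.5 FPKM in 4 or more tumors. One mean per group was fitted to log2(FPKM + 1) of all 16 tumors with limma 3.58.1 (trend) in R 4.3.3, with Benjamini-Hochberg adjustment, and the fit was tested on simulated data. Descriptions used Python 3.11.15, numpy 2.4.6 and pandas 2.3.3. Of the gene IDs, 99.7% matched RefSeq, and promoters and loci are RefSeq, GRCm38.p6. Members and lists were chosen with earlier results of these data known. All members are named, with up to 4 genes of longer lists by the largest change in combination against vehicle and in α-KG against anti-PD1, all markers, and the 3 genes most like each member. Cd14, Cd180, Ly86, Hsp90b1, Cnpy3 and Fam114a1 were named for their role or position. Alternatives were another pseudocount, no filter, 3 scalings, the compared groups only, a replicate block, marker covariates and leaving out each tumor. P-values measure the spread between these tumors.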

Additional observations from a re-analysis of the deposited data

Results flagged for a closer look

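In 4 members the effect of anti-PD1 differed between tumors with and without α-KG, as the interaction terms above show. The interaction was -2.49 for Tlr2, -1.77 for Tlr6, -1.74 for Tlr13 and -0.72 for Tlr4 on the log2 scale. In all 4 anti-PD1 alone lay above vehicle on average and the combination lay below α-KG on average. The neutrophil markers had interactions of the same sign, 6 of 6 called lower, beside 3.13% of all genes. Their part in the result was not tested apart from the covariate fit given above.

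Of 40 sets of 4 tumors (10 members in 4 groups), 1 held a tumor far from the other 3. It was Tlr3 at 9.47 FPKM in α-KG + anti-PD1 tumor 1, with the other 3 between 6.73 and 6.97 FPKM. Chance alone gives about 5% of such sets.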

How the results depend on the processing

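Depth was unknown, so low FPKM values carry an unmeasured counting error, and 4 tumors a group limit every test. Over all alternatives and results, 1079 kept their direction and their side of the threshold, 95 lost and 35 gained a call, and 51 changed sign. The cause was not tested unless stated. The calls of Tlr2 and Tlr6 in α-KG against vehicle, α-KG against anti-PD1 and combination against α-KG held under every alternative except the neutrophil covariate, which was added after seeing the data. With it Tlr6 was at 1.88, 1.44 and -1.05 in these comparisons, beside 2.18, 1.71 and -1.30 without it, and Tlr2 at 1.53, 0.49 and 0.0069, beside 3.13, 1.97 and -1.34.

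Numbers of members called moved as follows. Combination against vehicle went from 9 to 0 with the macrophage covariate (0 at an unadjusted p under 0.05, 0 of all genes called). It was 9 without any single tumor. α-KG against vehicle went from 7 to 3 with the macrophage covariate (2.88% of all genes higher) and 0 with the neutrophil covariate (7 unadjusted, 0 of all genes). It went to 6 without the filter (5.70%), after quantile normalization (8.09%) or with sums set equal (6.56%), with Tlr4 lost in each. It went to 8 with a pseudocount of 0.1 (9.16%, Tlr9 gained) and to 6 to 8 without single tumors. Anti-PD1 against vehicle went from 1 to 4 with a pseudocount of 0.1 (1.81% of all genes higher) and 3 with the neutrophil covariate (1.25%). It went to 2 after quantile normalization (0.599%) or median centering (1.04%). It went to 0 without the filter (0.0159%), with sums set equal (0.117%) or with the 2 compared groups only (0 of all genes), with 8 unadjusted each. It was also 0 with the macrophage covariate (0 unadjusted, 0 of all genes). The number of members was 4 without vehicle tumor 1, 2 without anti-PD1 tumor 1 and 0 without any other single tumor (6 to 9 unadjusted). Without vehicle tumor 3 or 4 or anti-PD1 tumor 2, 3 or 4, 0 of all genes were called. Combination against anti-PD1 went from 2 to 5 with sums set equal, 4 with the neutrophil covariate, 1 after quantile normalization or centering (both calls lost, and Tlr4 called lower at -0.54 and -0.47), and 0 with a pseudocount of 0.1, no filter, the 2 groups only (5 unadjusted each) or the macrophage covariate (3 unadjusted), and to 0 to 3 without single tumors (3 to 8 unadjusted). Combination against α-KG went from 5 to 0 with the neutrophil covariate (1 unadjusted, 0 of all genes) and to 4 to 6 without single tumors. α-KG against anti-PD1 went from 2 to 5 with the macrophage covariate (3.81% of all genes higher). It went to 0 with the neutrophil covariate (2 unadjusted, 0 of all genes) and stayed at 2 without single tumors. The interaction went from 4 to 5 with the macrophage covariate (Tlr3 positive beside 19.3% of all genes, 4 negative beside 4.12%). It went to 3 without the filter (1.89% negative) or with sums set equal (2.21%). It went to 0 with the neutrophil covariate (4 unadjusted, 0 of all genes) and to 3 to 4 without single tumors.

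Same-numbered tumors did not vary together (correlations of -0.64 to 0.41), so the numbers do not pair them. With a replicate block the members called were 9 in combination against vehicle (33.0% of all genes higher) and 6 in α-KG against vehicle (7.66%). They were 5 in combination against α-KG, 2 higher (29.2%) and 3 lower (5.65%), 2 in α-KG against anti-PD1 (2.30% higher) and 3 for the interaction (2.48% lower). They were 0 in anti-PD1 against vehicle (8 unadjusted, 0 of all genes) and combination against anti-PD1 (6 unadjusted, 11.1% higher).

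Scaling changed the balance of all genes. In combination against vehicle 4479 genes were higher and 1348 lower, against 2241 and 3994 after quantile normalization, 2197 and 4803 after centering, and 6294 and 250 with sums set equal, and the median gene moved from 0.15 to -0.11, -0.16 and 0.34. In combination against α-KG the numbers were 4086 and 832, then 2023 and 2020, 1758 and 3127, and 6829 and 368. In combination against anti-PD1 they were 1819 and 168, then 721 and 1082, 802 and 1968, and 4198 and 36. In α-KG against vehicle they were 1080 and 968, then 1039 and 1644, 1055 and 1379, and 843 and 403. Of the members, 8 were higher and 1 lower in combination against vehicle after quantile normalization, and 2 higher and 4 lower in combination against α-KG after quantile normalization or centering.

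Changes of sign were these, on the log2 scale. With the macrophage covariate, anti-PD1 against vehicle was -0.13 for Myd88, -0.14 for Tlr1, -0.19 for Tlr3 and -0.079 for Tlr9, α-KG against vehicle -0.30 for Tlr9, combination against vehicle -0.20 for Tlr4 and -0.090 for Tlr13, combination against anti-PD1 -0.33 for Tlr13 and -0.0080 for Tlr8, combination against α-KG -0.21 for Myd88 and -0.23 for Tlr1, and the interaction 0.19 for Tlr7. With the neutrophil covariate, combination against α-KG was -0.59 for Myd88, -0.53 for Tlr1, 0.0069 for Tlr2, -1.59 for Tlr7, -0.68 for Tlr8 and -0.52 for Tlr9, α-KG against anti-PD1 1.19 for Tlr8 and 1.61 for Tlr9, and the interaction -1.51 for Tlr9. After quantile normalization and centering, combination against α-KG was -0.014 and -0.060 for Myd88 and -0.19 and -0.16 for Tlr1, combination against anti-PD1 -0.11 and -0.054 for Tlr13, and combination against vehicle -0.38 and -0.26 for Tlr4. With sums set equal, Tlr7 was -0.020 in α-KG against anti-PD1 and 0.00042 for the interaction, and with a pseudocount of 0.1 the Tlr9 interaction was -0.48. Without single tumors, combination against α-KG spanned -0.0047 to 0.39 for Myd88 and -0.030 to 0.33 for Tlr1, combination against anti-PD1 -0.029 to 0.34 for Tlr13, α-KG against vehicle -0.080 to 0.080 for Tlr3, combination against vehicle -0.059 to 0.17 for Tlr4, α-KG against anti-PD1 -0.24 to 0.20 for Tlr7 and -0.20 to 0.066 for Tlr8, and the interaction -0.45 to 0.054 for Tlr7 and -0.032 to 0.60 for Tlr9. None of these results was called in the fit as reported except Tlr13 in combination against vehicle and Tlr2 and Tlr9 in combination against α-KG.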

Other observations

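The remaining mouse Toll-like receptors were scarce. Tlr5 and Tlr11 did not reach the filter, with mean levels of 0.11 to 0.45 FPKM and 0.0225 to 0.517 FPKM over the groups. Tlr12, a partner of Tlr11 in sensing profilin, was at 0.69, 0.26, 0.19 and 0.21 FPKM in vehicle tumors and at 3.38, 1.42, 2.78 and 0.72 FPKM after the combination, a difference of 1.12 (SE 0.24, adjusted p = 0.00203, limma). Every combination tumor was above every vehicle tumor. Its differences from anti-PD1 (0.83, adjusted p = 0.0335) and from α-KG (1.01, adjusted p = 0.00476) also passed the threshold.

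Lymphoid and dendritic markers had another pattern than the neutrophil markers. The 5 T cell markers measured here were all higher after the combination than in vehicle, anti-PD1 and α-KG tumors, beside 34.9%, 14.2% and 31.8% of all genes. Their summed levels were 16.5 to 150 FPKM against 0.53 to 6.67, 5.62 to 19.8 and 4.64 to 26.9 FPKM. All 5 tested dendritic cell markers were higher after the combination than in vehicle and 2 were after α-KG, beside 34.9% and 8.40% of all genes. Of the 5 tested plasmacytoid dendritic cell markers, which mark a cell type known for Tlr7 and Tlr9, 4 were higher after the combination than in vehicle and none was higher after α-KG, beside the same shares. The exception, Cox6a2, which muscle also expresses, was at -0.62 after the combination and -1.75 (adjusted p = 0.0194) after α-KG. Their summed level was 5.33 to 18.2 FPKM after the combination and 5.19 to 30.6 FPKM in vehicle tumors.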
